A study of Mus musculus with 30 samples.

Results

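Skeletal muscle of mutant and wild-type mice that had both received an activin receptor trap was compared on 8 arrays out of the 30 in the series, 4 per genotype. The members were every muscle array whose labels give the trap, sActRIIB-Fc, with the mutant arrays set against the wild-type arrays. The mutant is named Kif3aΔTub and its genotype label is Kif3aKSPCre. Its Cre recombinase is driven by the promoter of kidney-specific cadherin, so that Kif3a is removed from kidney tubules and not from muscle fibres. The animals were 6 weeks old and all 8 had been injected into the peritoneum once a week with 10 mg/kg of the trap, 2 times. The comparison therefore asks which genotype differences were present in muscle while the trap was on board. Untreated animals, given PBS, formed 2 further muscle groups (4 mutants and 3 wild types), and the kidneys of all 15 animals were also profiled. Which muscle was taken was not given in the labels. The array signal was that of whole snap-frozen tissue, so fewer cells of a type and less RNA per cell cannot be told apart.

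Kif3a encodes a motor subunit of kinesin-2, which carries cargo into the primary cilium. Loss of it from tubule cells gives cystic and fibrotic kidneys, and chronic kidney disease is known for muscle wasting. Activins and related ligands bind the receptor ActRIIB on muscle fibres, act through SMAD2 and SMAD3 and restrain muscle mass. sActRIIB-Fc is the outer part of that receptor joined to an antibody tail, and it catches these ligands before they reach the cell. Muscle also holds fibroblasts, tendon cells, vessels and macrophages, which make most of the collagens and matrix proteins of the tissue.

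Of 17782 genes, 295 were called between the genotypes in treated muscle (1.66% of all, limma, Benjamini-Hochberg adjusted p under 0.05). Nearly all of the calls were falls: 269 genes were lower in mutants (1.51% of all) and 26 were higher (0.146% of all). The median called fall was -0.79 and the median called rise 0.65 on the log2 scale, against 0.015 over all genes. At least a 2-fold change was reached by 55 falls and 6 rises. The arrays of the genotypes did not overlap in 1687 genes (9.49% of all), and in 286 of the 295 called ones. All changes below are log2 differences of mutant minus wild type ± standard error, and levels are log2 intensities, so a difference of 1 is 2-fold.

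The count of calls depended on single arrays and on an array control. Leaving out 1 of the 8 arrays gave 101 calls (without mutant replicate 3) to 378 (without mutant replicate 2), with 106, 108, 127, 166 and 178 without wild-type replicates 1 and 4, mutant replicate 4, wild-type replicate 2 and mutant replicate 1. The actin control's 3 prime minus 5 prime signal lay between 0.0932 and 0.204 in the mutants and between 0.129 and 0.396 in the wild type, and with it as a covariate 34 genes were called, all among the 295. Array weights gave 996 calls that included all 295. In each of these fits all 295 genes kept the direction given here.

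The labels were checked against the signal. Fast-fibre sarcomere genes averaged 13.6 to 13.7 on the 8 arrays and kidney tubule markers 5.32 to 5.64, so the tissue read as muscle. In the kidneys of the same animals Lcn2, a protein released by injured tubules, lay between 12.31 and 13.20 in the 4 treated mutants and between 4.65 and 5.07 in the 4 treated wild types. Kif3a did not separate these kidneys, at 7.37 to 8.0 in the mutants and 7.34 to 7.84 in the wild type. In untreated kidneys the same probe set read 7.22 to 7.48 in mutants and 7.76 to 7.89 in wild types (-0.50 ± 0.15, limma adjusted p = 0.011). Genotype is therefore given as labelled. Kif3a in muscle says nothing about a deletion that is driven in kidney. Array medians were 5.98 to 6.06, and arrays of a group correlated at 0.986 to 0.994 across genes.

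**Figure D1:**
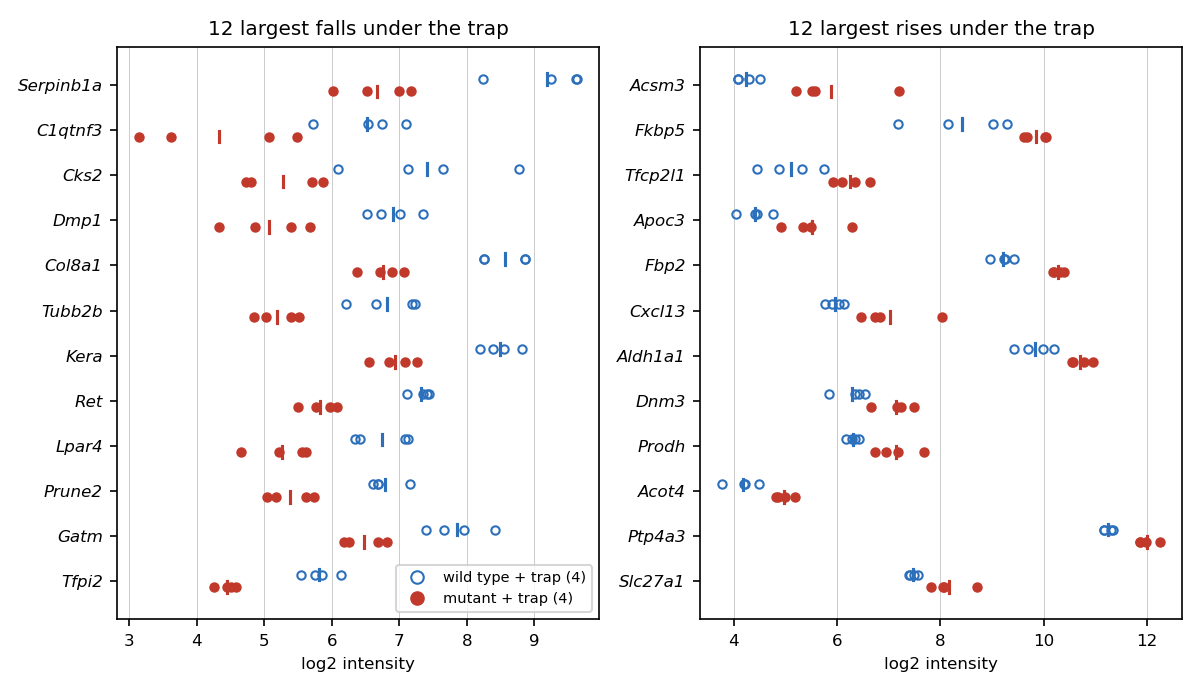
Each circle is the log2 intensity of 1 muscle array for the 12 called genes that fell most (left) and the 12 that rose most (right), with filled red circles for mutants and open blue circles for wild types, all given the trap, and a bar at each group mean. In every row the red and blue circles do not overlap, as the choice of genes required.

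The largest measured difference was that of Serpinb1a, an inhibitor of neutrophil proteases. Its level was 6.52, 7.17, 6.99 and 6.01 in mutants 1 to 4 and 9.63, 8.24, 9.25 and 9.61 in wild types 1 to 4. All mutants were thus below all wild types, by 2.51 ± 0.39 or 5.68-fold (adjusted p = 0.00503). A weaker probe set of the gene gave -2.42. Untreated wild types had 6.82, 7.73 and 7.25, below every treated wild type, and untreated mutants had 5.16 to 7.01. The change with treatment within a genotype was not tested here.

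Dmp1, an acidic matrix phosphoprotein of bone, read 4.86, 4.33, 5.40 and 5.68 in the mutants and 7.34, 6.72, 7.01 and 6.52 in the wild types, a fall of 1.83 ± 0.28 (adjusted p = 0.00503). Untreated muscle was lower in both genotypes, at 3.09 to 3.25 in mutants and 3.98 to 5.15 in wild types. The genotype difference under PBS was -1.21 ± 0.30.

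C1qtnf3, an adipokine of the C1q family also made by cartilage, was likewise lower. It read 3.15, 5.49, 3.63 and 5.07 in the mutants and 6.53, 7.11, 5.72 and 6.75 in the wild types (-2.19 ± 0.42, adjusted p = 0.0159). The mutants spread widely, and mutant replicate 2 came close to the lowest wild type. Cks2, which binds cyclin-dependent kinases, read 5.71, 5.87, 4.74 and 4.80 against 7.65, 7.13, 6.10 and 8.77 (-2.13 ± 0.46, adjusted p = 0.0306). Here the wild types spread most, with replicate 3 lowest and replicate 4 highest.

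The smallest adjusted p of all genes belonged to Tfpi2, a secreted inhibitor of serine proteases, and to Ret, the receptor for GDNF ligands. Tfpi2 read 4.25, 4.58, 4.44 and 4.51 in the mutants and 6.14, 5.85, 5.54 and 5.75 in the wild types (-1.37 ± 0.14, adjusted p = 0.000894). Ret read 6.07, 5.50, 5.77 and 5.98 against 7.43, 7.11, 7.35 and 7.41 (-1.49 ± 0.16, adjusted p = 0.000894). For both genes each genotype kept close together and the groups lay well apart. The second, dimmer probe set of Ret gave only -0.29.

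Col8a1, a short-chain collagen of vessels, fell by 1.80 ± 0.26, and its 2 dimmer probe sets gave -1.09 and -0.27. Tubb2b, a beta-tubulin of immature cells, fell by 1.63 ± 0.36, Lpar4, a receptor for lysophosphatidic acid, by 1.48 ± 0.25, and Gatm, the first enzyme of creatine synthesis, by 1.38 ± 0.20. Prune2 fell by 1.39 ± 0.30 on its brightest probe set, while the other 2 gave 0.00 and 0.09. In 7 of the 12 largest falls the mutant mean did not exceed 5.48, which is the average that kidney tubule markers gave in treated muscle. That average is not a floor, as C1qtnf3 read 3.15 in mutant 1. The size and rank of those falls are uncertain, and how background affected them was not tested.

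Collagens and matrix proteins were the list with the most calls. Of its 30 measured members 16 fell, beside 1.51% of all genes, and none rose, with a median of -0.80. All 30 values were negative, and in 27 of them the arrays did not overlap, beside 9.49% of all genes. Col15a1, a basement membrane collagen, read 7.54, 7.71, 7.61 and 7.64 in mutants and 8.85, 8.99, 8.71 and 8.91 in wild types (-1.24 ± 0.15, adjusted p = 0.00186). The gap between the genotypes was several times the spread within either. Col4a5, another basement membrane chain, fell by 1.27 ± 0.20 and Col5a2, which joins type I collagen in fibrils, by 1.16 ± 0.19. A dimmer probe set of Col4a5 gave only -0.31.

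Of type I and type III collagen, the bulk of fibrous matrix, Col1a1 and Col3a1 missed the threshold. Col1a1 read 9.63, 10.20, 9.40 and 9.87 in the mutants and 10.73, 11.12, 10.65 and 10.59 in the wild types (-1.0 ± 0.25, adjusted p = 0.0532, not called). Col3a1 read 12.15, 12.72, 12.09 and 12.20 against 13.08, 13.31, 12.90 and 13.10 (-0.81 ± 0.31, adjusted p = 0.254, not called). The groups did not overlap for either gene, and mutant replicate 2 was the highest mutant in both. Col1a1 gained the call in 5 of 18 alternative settings, with limma adjusted p between 0.00645 and 0.433. Col3a1 gained it in 2 of 18, with limma adjusted p between 0.0242 and 0.836. Col1a2, the partner chain of Col1a1, was called at -0.73 ± 0.17 (adjusted p = 0.0467); it was chosen after its values were seen.

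Over the whole family, counted after values were seen, 15 of 41 collagen chains fell, beside 1.51% of all genes, and none rose (median -0.53). Among these, Col6a1, Col6a2 and Col6a3, which form the microfibrils around muscle fibres, fell by 0.97 ± 0.21, 1.10 ± 0.22 and 1.27 ± 0.28. The type V chains Col5a1 and Col5a3 fell by 0.96 ± 0.17 and 1.15 ± 0.18, and Col12a1, a fibril-associated collagen, by 0.97 ± 0.20. The dimmer probe sets of Col12a1 gave only -0.22 and -0.01, and that of Col5a3 gave 0.00. Serpinh1, the collagen chaperone of the endoplasmic reticulum, fell by 1.05 ± 0.18, and Loxl1, which cross-links elastic fibres, by 0.80 ± 0.15. The matrix list held 7 to 15 called members without single arrays and 3 with the actin covariate. It held 18 with the 18S covariate, 24 with array weights and 25 with only the groups compared. Its medians lay between -0.92 and -0.72 over all settings tried.

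Tendon genes followed, with 7 of 20 measured members lower, beside 1.51% of all genes, and none higher (median -0.69). Kera, the proteoglycan keratocan, read 6.55, 7.08, 7.26 and 6.84 in the mutants and 8.55, 8.38, 8.81 and 8.19 in the wild types (-1.55 ± 0.25, adjusted p = 0.00544). Tnmd, the tendon membrane protein tenomodulin, read 8.25, 8.75, 8.20 and 8.88 against 9.73, 10.06, 10.20 and 9.37 (-1.32 ± 0.24, adjusted p = 0.0125). Both genes were lower in 4 of 4 mutants than in any wild type. Ecrg4, a secreted peptide precursor, fell by 1.25 ± 0.20, Wif1, a secreted Wnt inhibitor, by 1.12 ± 0.26, and Col11a1, a fibril collagen of cartilage and tendon, by 0.95 ± 0.14. Without single arrays 3 to 8 members of the list were called, and 2 with the actin covariate. The 18S covariate gave 10, and array weights and only the groups compared gave 11 each.

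Markers of other cells in the tissue gave fewer calls than the matrix and tendon lists. Of 19 fibroblast, pericyte and smooth muscle markers 3 fell, beside 1.51% of all genes, and none rose (median -0.35). Negative values were found in 18 of the 19, and the arrays did not overlap in 8, beside 9.49% of all genes. The 3 called were the surface glycoprotein Thy1 (-1.01 ± 0.20), the progenitor marker Cd34 (-0.83 ± 0.18) and the matrix protein dermatopontin, Dpt (-0.64 ± 0.15). The mean level of the list was 8.68 to 8.82 on the mutant arrays and 9.07 to 9.38 on the wild-type arrays. Without wild-type replicates 1 or 4, or mutant replicates 3 or 4, and with the actin covariate, none of the 3 was called. With array weights 6 of the 19 were called lower. Of 20 endothelial markers none was called (median -0.19), and Cdh5, the junction protein VE-cadherin, had the smallest p at -0.49 ± 0.12 (adjusted p = 0.0564). The part of these cells in the matrix result was not tested.

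Macrophage and myeloid markers were negative in all 25 measured members (median -0.58), of which 2 were called, beside 1.51% of all genes called lower. Aif1, the actin-binding protein IBA1, read 5.46, 5.45, 4.94 and 4.63 in the mutants and 6.79, 5.84, 6.03 and 6.53 in the wild types (-1.18 ± 0.22, adjusted p = 0.0134). Adgre1, a surface receptor of macrophages, read 7.29, 7.41, 7.02 and 6.91 against 8.35, 7.72, 7.67 and 8.51 (-0.91 ± 0.21, adjusted p = 0.0413). In both genes wild-type replicates 1 and 4 stood high, and no marker of the list was called without either of them, without mutant replicate 3 or with the actin covariate. With array weights 9 of the 25 were called lower. The mean level of the list overlapped between the genotypes, at 7.26 to 7.79 and 7.72 to 8.27. Neutrophil (10), lymphocyte (16), erythroid (5), adipocyte (19) and Schwann cell (10) lists held no called member.

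Genes of cell division had the lowest median of all 44 lists, -0.96, with 24 of 24 values negative and none called. With only genes above the median level 5 members remained, at a median of -0.42 and behind the matrix list, and with array weights 11 of the 24 were called lower. Mki67, a nuclear protein of dividing cells, was chosen after its values were seen. It read 6.35, 6.39, 4.54 and 5.0 in the mutants and 7.95, 7.65, 5.58 and 9.30 in the wild types (-2.05 ± 0.65, adjusted p = 0.143). Wild-type replicate 3 lay within the mutant range and replicate 4 far above it. Kif11, the mitotic kinesin with the smallest p of the list, gave -1.48 ± 0.39 (adjusted p = 0.0744). Without wild-type replicate 3, 12 of the 24 were called lower and the median was -1.32; without wild-type replicate 4 the median was -0.60 and none was called.

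**Figure D2:**
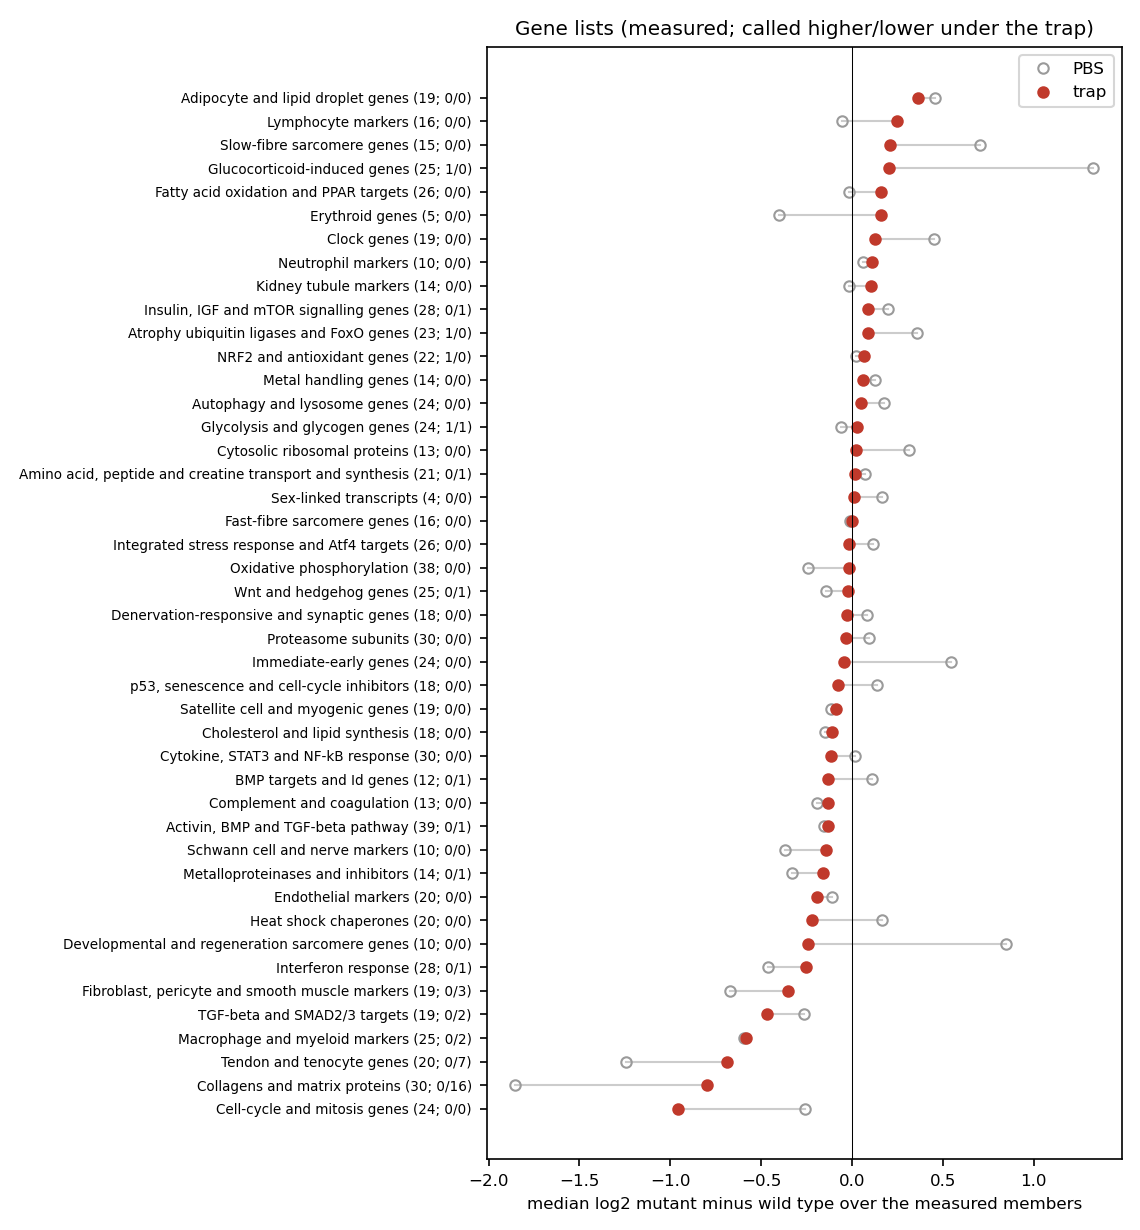
Median log2 difference of mutant minus wild type over the measured members of 44 gene lists, filled red under the trap and open grey under PBS, with the number measured and the counts called higher and lower under the trap beside each name. Matrix, tendon and cell-cycle genes lie farthest to the left under the trap, and the glucocorticoid list lies at 0.21 under the trap and at 1.33 under PBS.

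The rises were fewer and smaller than the falls. Acsm3, a mitochondrial medium-chain acyl-CoA synthetase, was at 5.21, 7.20, 5.51 and 5.57 in the mutants and 4.08, 4.30, 4.50 and 4.09 in the wild types (1.63 ± 0.33, adjusted p = 0.0181). Its wild-type level was low, so the size of this rise is uncertain. Mutant replicate 2 was far above the other 3 mutants. The same animal was also highest for Apoc3, an apolipoprotein (1.09 ± 0.25), and Cxcl13, a chemokine for B cells (1.05 ± 0.24). Without that array Acsm3 and Cxcl13 were still called, at 1.19 and 0.72, and Apoc3 was not, at 0.84 (adjusted p = 0.0582).

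Fbp2, the muscle form of fructose-1,6-bisphosphatase, rose with little spread. It read 10.20, 10.39, 10.19 and 10.32 in the mutants and 8.95, 9.26, 9.42 and 9.22 in the wild types (1.06 ± 0.15, 2.09-fold, adjusted p = 0.00461). The mutants lay close together and all above the wild types. Untreated wild types had 9.84 to 10.16, above every treated wild type, which was not tested here. Under PBS the genotype difference was 0.55 ± 0.17.

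Fkbp5, a chaperone of the glucocorticoid receptor and a classical target of it, read 9.62, 10.05, 10.03 and 9.67 in the mutants and 8.14, 7.18, 9.29 and 9.03 in the wild types (1.43 ± 0.34, adjusted p = 0.0464). The mutants were close together and the wild types spread widely. Its call was lost in 12 of 18 alternative settings, with adjusted p between 0.0133 and 0.16. Tfcp2l1, a transcription factor, rose by 1.15 ± 0.24, and Ptp4a3, a small tyrosine phosphatase, by 0.75 ± 0.12. When both probe sets of Ptp4a3 were averaged the rise was 0.53 and the call was lost (adjusted p = 0.345).

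The other rises were below 2-fold. Slc27a1, a fatty acid transporter of muscle, rose by 0.70 ± 0.15, Acot4, a peroxisomal acyl-CoA thioesterase, by 0.79 ± 0.16, Prodh, the first enzyme of proline breakdown, by 0.83 ± 0.18, and Aldh1a1, which makes retinoic acid, by 0.89 ± 0.16. Dnm3, a dynamin, rose by 0.85 ± 0.19, and its 4 dimmer probe sets ranged from -0.17 to 0.78. In 4 of the 12 largest rises the wild-type mean lay at or under 5.48, and their sizes are uncertain as well. The list of fatty acid oxidation and PPAR targets had no called member among 26, at a median of 0.16 with 24 values positive, and Acot1, a cytosolic thioesterase, gave 1.19 ± 0.33 (adjusted p = 0.0911).

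The promoters of these genes were read for 8 short motifs. RefSeq promoters of 300 bases, 250 before and 50 after the start (GRCm38.p6), were found for 19 of the 24 genes. The E-box CACGTG was in 4 of 13 promoters of the rises, those of Acot4, Fbp2, Fkbp5 and Slc27a1, in 1 of 12 of the falls and in 7.15% of all 32851 promoters. The SMAD-binding hexamer CAGACA was in 6 of 12 promoters of the falls (2 of them overlapping promoters of Tfpi2), in 2 of 13 of the rises and in 21.0% of all. The glucocorticoid receptor hexamer AGAACA was in none of the 13 promoters of the rises, Fkbp5 included, in 3 of 12 of the falls (2 of them again the overlapping Tfpi2 promoters) and in 19.0% of all.

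GTAAACA, bound by FoxO factors, was in 1 promoter of the rises (Acsm3), none of the falls and 3.65% of all promoters. TTCNNNGAA, bound by STAT factors, was in 1 promoter of the rises (Prodh), none of the falls and 8.3% of all. TGACGTCA, GTCTAGAC and TTGCGCAA, bound by CREB, SMAD and C/EBP factors, were in none of either set and in 1.79%, 0.213% and 0.183% of all. Both strands were searched, and such a match is a description of letters and not a binding site. The promoters of 2 rises with an E-box and of 2 falls with a SMAD hexamer are printed 5′ to 3′ in the direction of the gene, with matches to the searched motifs in capitals (TGTCTG is CAGACA on the other strand). In Fkbp5 a SMAD hexamer overlaps the E-box by 2 bases.
Fbp2 (chr13:62858351-62858650, minus strand): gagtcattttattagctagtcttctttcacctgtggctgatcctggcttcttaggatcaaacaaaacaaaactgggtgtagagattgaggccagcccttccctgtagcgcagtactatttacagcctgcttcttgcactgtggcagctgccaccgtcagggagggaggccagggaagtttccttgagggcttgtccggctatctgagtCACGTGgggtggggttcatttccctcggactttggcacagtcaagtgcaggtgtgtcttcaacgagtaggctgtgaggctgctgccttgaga
Fkbp5 (chr17:28486100-28486399, minus strand): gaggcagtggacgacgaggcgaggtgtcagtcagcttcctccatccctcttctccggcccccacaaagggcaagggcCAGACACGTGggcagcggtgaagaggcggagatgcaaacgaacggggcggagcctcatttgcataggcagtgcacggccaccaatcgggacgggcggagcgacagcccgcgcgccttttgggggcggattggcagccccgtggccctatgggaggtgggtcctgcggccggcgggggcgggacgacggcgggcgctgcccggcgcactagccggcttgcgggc
C1qtnf3 (chr15:10952082-10952381, plus strand): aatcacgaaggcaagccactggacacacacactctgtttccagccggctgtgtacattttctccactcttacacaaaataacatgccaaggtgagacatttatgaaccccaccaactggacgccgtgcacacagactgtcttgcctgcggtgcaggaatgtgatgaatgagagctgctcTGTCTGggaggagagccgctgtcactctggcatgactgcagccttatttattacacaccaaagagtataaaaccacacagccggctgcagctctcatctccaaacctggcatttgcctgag
Col8a1 (chr16:57754688-57754987, minus strand): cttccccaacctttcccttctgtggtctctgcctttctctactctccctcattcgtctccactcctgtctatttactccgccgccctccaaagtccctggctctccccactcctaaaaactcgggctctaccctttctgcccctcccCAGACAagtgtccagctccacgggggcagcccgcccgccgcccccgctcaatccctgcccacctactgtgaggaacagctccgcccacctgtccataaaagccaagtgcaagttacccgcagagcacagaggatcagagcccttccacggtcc

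Of the ubiquitin ligases and FoxO genes of muscle wasting, few separated the treated genotypes. Fbxo32, the ubiquitin ligase atrogin-1, read 10.53, 9.26, 10.13 and 10.30 in the mutants and 9.90, 9.65, 10.30 and 9.75 in the wild types (0.16 ± 0.50, adjusted p = 0.945). Trim63, the ligase MuRF1, read 11.92, 11.32, 11.17 and 11.48 against 11.50, 11.34, 11.52 and 11.68 (-0.04 ± 0.27, adjusted p = 0.978). The groups overlapped for both genes. Fbxo30, the ligase MUSA1, gave -0.13 ± 0.12 and the transcription factor Foxo1 0.47 ± 0.25, neither called.

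Of the 23 measured ubiquitin ligases and FoxO genes 1 was called, Foxo4, beside 1.66% of all genes. This FoxO factor of muscle was at 9.11, 9.14, 9.42 and 9.40 in the mutants and 8.64, 8.91, 8.79 and 8.77 in the wild types (0.49 ± 0.12, adjusted p = 0.0499). The call stood at the edge of the threshold and was lost in 11 of 18 settings. The median of the list was 0.09 under the trap and 0.36 under PBS, where 10 members were higher and 1 lower (beside 6.93% of all genes higher and 9.04% lower). Proteasome subunits (30), autophagy and lysosome genes (24) and Atf4 targets (26) had no called member under the trap, with medians of -0.03, 0.05 and -0.02. Atf4 itself gave 0.14 ± 0.14.

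Glucocorticoid-induced genes had 1 of 25 members called, Fkbp5, beside 0.146% of all genes called higher, and a median of 0.21. Under PBS 19 of the 25 were higher, beside 6.93% of all genes, and the median was 1.33. The difference between the treatments, tested below, was called for none of the 25. Wild-type replicate 4 stood apart in this list. Cebpd, a transcription factor induced by glucocorticoids and cytokines, read 9.50, 8.52, 9.37 and 9.98 in the mutants and 8.28, 8.57, 8.47 and 10.08 in the wild types (0.49 ± 0.40). Ddit4, an inhibitor of mTORC1, read 9.03, 7.67, 8.77 and 9.94 against 7.45, 7.17, 7.70 and 10.72 (0.59 ± 0.64). In both genes that 1 wild-type array was the highest of all 8, and without it the median of the list was 0.50 with all 25 values positive and none called. Arrdc2, an arrestin-domain gene, gave 1.65 ± 0.60 (adjusted p = 0.218), Pik3r1, which regulates PI3-kinase, 0.75 ± 0.27, and the peptide transporter Slc15a2 0.23 ± 0.64, none called.

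Members of the activin, BMP and TGF-beta pathway were largely not called. Among ligands, Inhba, the subunit of activin A, read 6.37, 6.15, 6.38 and 6.15 in the mutants and 6.58, 6.59, 6.70 and 6.39 in the wild types (-0.30 ± 0.10, adjusted p = 0.176). The mutants all lay below the wild types, but the gene was not called. Inhbb, the subunit of activin B, gave 0.22 ± 0.12 (adjusted p = 0.466). The antagonist follistatin, Fst, gave -0.26 ± 0.19 and the receptor Acvr2b -0.13 ± 0.16. Of 39 pathway genes 1 was called, beside 1.66% of all genes. It was Bambi, a pseudoreceptor that blocks type I receptors, at 5.63, 6.17, 6.24 and 6.22 against 6.43, 6.92, 6.88 and 6.77 (-0.69 ± 0.16, adjusted p = 0.0418). Its call was lost in 10 of 17 settings.

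Targets downstream of the pathway leaned lower. Of 19 TGF-beta and SMAD2/3 targets 2 fell, beside 1.51% of all genes, and none rose (median -0.47). The 2 were Tgfbi, a matrix protein induced by TGF-beta (-0.72 ± 0.16), and the integrin subunit Itgav (-0.47 ± 0.10). The 4 probe sets of Tgfbi gave -0.76 to -0.68. Id1, a target of BMP signalling, gave -0.13 ± 0.26. Of the insulin and IGF genes (28) Igfbp6, which binds IGF-II, fell by 0.58 ± 0.14, and Igf1, chosen after its values were seen, gave -0.64 ± 0.23 (adjusted p = 0.221).

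The contractile and metabolic genes of the fibres differed little. Fast-fibre sarcomere genes (16) had a median of 0.00, oxidative phosphorylation genes (38) of -0.02 and ribosomal proteins (13) of 0.02, with none called. Slow-fibre genes (15) had a median of 0.21 and none called; the smallest p was that of the troponin Tnnc1 at 0.61 ± 0.23 (adjusted p = 0.227). In glycolysis 2 of 24 were called in opposite directions, beside 1.66% of all genes, Fbp2 as given and the hexokinase Hk1 (-0.72 ± 0.14). Gstm1, a glutathione transferase, rose by 0.45 ± 0.09 and Ifit2, an interferon-induced protein, fell by 0.79 ± 0.16. Each was the only call of its list (22 and 28 measured), beside the same 1.66%. In all, 28 of the 44 lists had no called member.

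Genes of muscle formation and repair were not called either. Myog, the differentiation factor myogenin, read 7.55, 9.09, 7.36 and 8.42 in the mutants and 9.06, 9.30, 8.68 and 9.50 in the wild types (-1.03 ± 0.33, adjusted p = 0.143). Tnnt2, the cardiac troponin T of developing and regenerating fibres, read 5.12, 7.71, 5.37 and 6.96 against 7.66, 8.29, 8.46 and 7.16 (-1.60 ± 0.49, adjusted p = 0.131). In both genes mutant replicate 2 was the highest mutant and reached the wild-type range. The satellite cell and myogenic list (19) had a median of -0.09 and the developmental sarcomere list (10) of -0.24, against 0.85 under PBS for the second. Timp2, an inhibitor of metalloproteinases, was the only call among 14 genes of that system (-0.47 ± 0.10), beside 1.66% of all genes.

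Single genes of stress and inflammation did not separate the groups. S100a8, an alarmin of neutrophils, gave 0.18 ± 0.47, Mt1, a metallothionein, 0.28 ± 0.55 and the transcription factor Myc -0.04 ± 0.29, with overlapping groups and none called. The direction of Myc turned with median centring and quantile normalization, and that of the other 2 without single arrays.

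Single genes differed in how well their calls held. Of 47 named genes that were called, 9 stayed called in every setting that gave a value: Col11a1, Col15a1, Col4a5, Ecrg4, Gatm, Ret and Tfpi2 among the falls and Fbp2 and Aldh1a1 among the rises. The level filter gave no value for Col11a1, Col4a5, Ret and Tfpi2. The 2-fold minimum was not applied to single genes, and Col11a1 (-0.95) and Aldh1a1 (0.89) changed by less than that. The other 38 of the 47 lost the call in at least 1 setting, with the direction kept.

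The comparison was then set beside the genotype difference of untreated muscle, which uses none of the same arrays and shares only the pooled estimate of spread. Under PBS 1608 genes were lower in mutants (9.04% of all) and 1232 higher (6.93% of all). With each array centred on its median 1326 were lower and 1595 higher. Of the 295 genes called under the trap 241 were also called under PBS, which is 81.7% of the trap calls and 8.49% of the PBS calls, and 240 of them with the same sign. Among the 269 falls 221 were called lower under PBS, beside 9.04% of all genes. Values of 268 were negative under PBS, where the median of all genes was -0.046. In 166 the fall was smaller under the trap than under PBS. Genes called lower under PBS had a median of -0.70 there and -0.26 under the trap, and genes called higher under PBS 0.60 and 0.14. As these genes were picked by their PBS calls, some narrowing under the trap follows from the choice. Across all genes the changes correlated at Pearson r = 0.525 and Spearman rho = 0.382, where genes are not independent replicates.

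**Figure D3:**
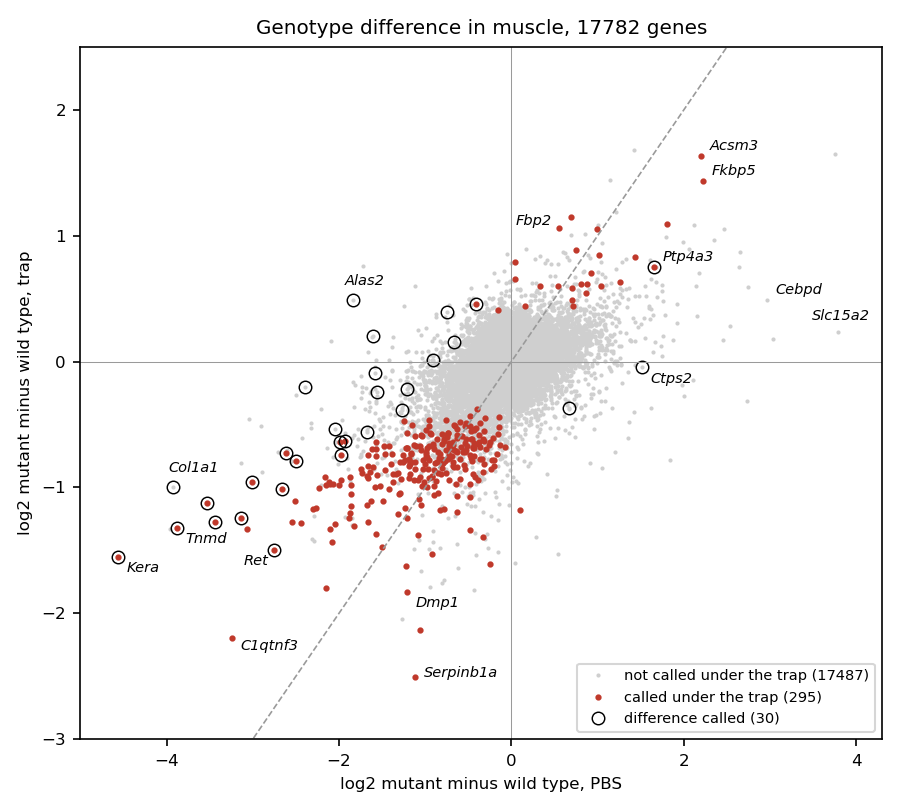
Genotype difference (log2 mutant minus wild type) under PBS on the horizontal axis and under the trap on the vertical axis for 17782 genes, with the 295 genes called under the trap in red, rings around the 30 genes whose difference between treatments was called, and a dashed line of equal values. Most ringed genes lie at the left, below 0 under PBS and nearer to 0 under the trap.

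The difference between the treatments was itself tested in the same fit, and 30 genes were called (0.169% of all). In 27 of them the trap value was higher than the PBS value, and all 27 were lower in untreated mutants; 13 of these 27 were called under the trap too. The set held 4 of the 30 measured members of the matrix list and 5 of the 20 of the tendon list. Kera was at -4.56 ± 0.27 under PBS and -1.55 ± 0.25 under the trap, a difference of 3.01 ± 0.36 (adjusted p = 0.00215). Col1a1 went from -3.93 ± 0.27 to -1.0 ± 0.25 (difference 2.93 ± 0.36, adjusted p = 0.00219) and Tnmd from -3.88 ± 0.26 to -1.32 ± 0.24 (2.56 ± 0.36, adjusted p = 0.00465).

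The values by array show where these differences sat. Col1a1 was 6.53, 7.97, 7.13 and 7.67 in untreated mutants and 11.29, 11.19 and 11.28 in untreated wild types. The treated mutants given above were all higher than any untreated mutant, and the treated wild types all lower than any untreated one. The change with treatment within either genotype was not tested. Kera was 4.27, 5.75, 4.56 and 4.81 in untreated mutants and 9.26, 9.49 and 9.48 in untreated wild types, with the same arrangement. Col11a1 (difference 2.05 ± 0.21), Serpinf1, an antiangiogenic serpin (1.71 ± 0.20), and Sparc, a collagen-binding matrix protein (1.31 ± 0.17), were also called lower under both treatments. Col11a2 was lower under PBS only, at -1.59 ± 0.15 against -0.09 ± 0.14.

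In 3 genes the difference was negative. Ptp4a3 was 13.02, 12.67, 12.98 and 12.90 in untreated mutants against 11.39, 11.02 and 11.31 in untreated wild types, a rise of 1.65 ± 0.13 that was 0.75 ± 0.12 under the trap (difference -0.90 ± 0.17, adjusted p = 0.0499). Ctps2, which makes CTP, was at 1.52 ± 0.20 under PBS and -0.05 ± 0.18 under the trap, and Ahnak, a large scaffold protein, at 0.67 ± 0.14 and -0.37 ± 0.13. Several genes with large untreated rises did not reach the threshold in this test: Slc15a2 gave a difference of -3.55 ± 0.94 (adjusted p = 0.126), Cebpd -2.47 ± 0.59 (0.0958) and Pik3r1 -1.89 ± 0.40 (0.0625). The count of 30 was 12 to 53 without all but 1 of the single arrays, 569 without untreated mutant replicate 2 and 363 with array weights.

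**Figure D4:**
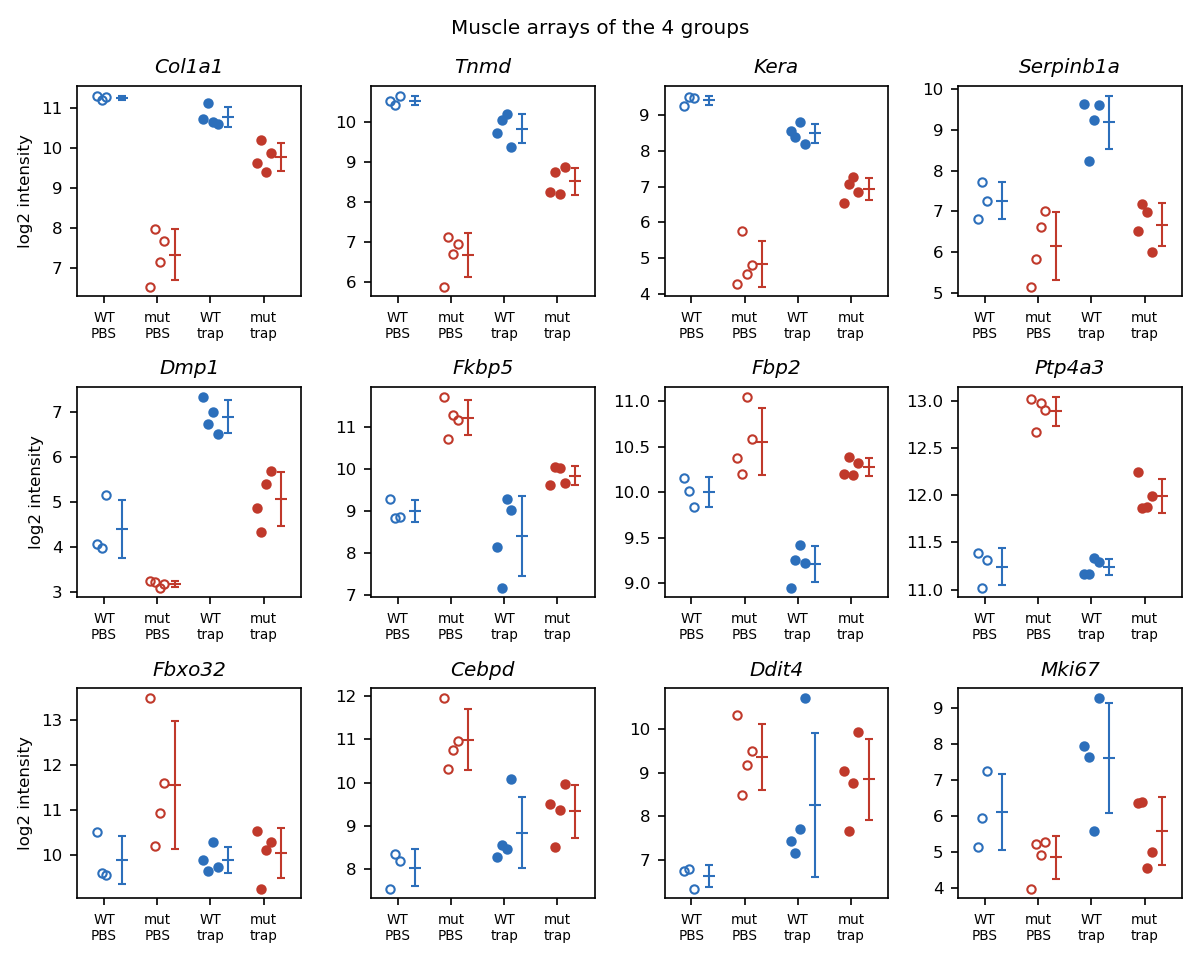
Log2 intensity of 12 genes on the 15 muscle arrays in 4 groups (WT, wild type, blue; mut, mutant, red; open circles PBS, filled circles trap), with the mean and SD of each group to the right of its points. Col1a1, Tnmd and Kera show mutants below wild types in both treatments with a narrower gap under the trap, and Ddit4 shows wild-type replicate 4 above the other treated wild types.

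Kidneys of the same 8 animals differed far more widely than their muscles. In kidney 8252 of 17782 genes were called between the treated genotypes (46.4% of all). Some genes that fell in muscle were higher there, such as Col8a1 by 3.83 ± 0.37 and Thy1 by 3.67 ± 0.25 on the log2 scale, and so was Col1a1 (2.65 ± 0.38), which was not called in muscle. Others were not: Kera differed by 0.00 ± 0.13 in kidney, and C1qtnf3 was lower there too (-2.58 ± 0.33). Inhba was higher in treated mutant kidneys by 1.22 ± 0.12 and Inhbb by 3.99 ± 0.27, neither of which was called in muscle. Lcn2 in muscle was 4.63, 4.78, 4.97 and 4.76 in treated mutants and 4.59, 4.25, 5.01 and 4.60 in treated wild types (0.17 ± 0.58, adjusted p = 0.946), and 6.06 to 10.01 in untreated mutants. No treated mutant muscle reached the level of any untreated one.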

How the data were processed

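RNA of snap-frozen muscle and kidney was measured on Affymetrix Mouse Genome 430 2.0 arrays, 1 array per tissue and animal, per the labels' protocols. The values are the authors' deposited log2 intensities, 1 per probe set, already normalized. The sources used here do not give the method, and the base of the logarithm was inferred from the range. Array number limits the precision, and a p-value sets a difference against the spread between sampled animals, pooled over the groups of a tissue.

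Of 35088 probe sets, 31563 carried 1 gene symbol, 825 more than 1 and 2700 none, leaving 17782 genes, 17754 of them in the RefSeq table. Each gene was read from its probe set of highest mean over the 15 muscle (or kidney) arrays. A mean per group was fitted over the 15 arrays of a tissue with limma 3.58.1 in R 4.3.3, with Benjamini-Hochberg adjustment over all genes; a gene was called at an adjusted p under 0.05. On simulated data the fit recovered 97% of genes changed by log2 1 and 100% of those changed by log2 2. This was for muscle under the trap, with 200 of 17782 genes changed, and gave 8 false calls. The simulated noise was normal and independent between genes and arrays, with each gene's spread as smoothed by limma. It held no outlying arrays, so it does not give the share of real changes that were called.

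Named genes are the 12 largest rises and falls among called genes whose arrays did not overlap, up to 4 called members of smallest p in each gene list (or the member of smallest p), a fixed set, and the 6 genes of smallest p in each direction of the difference from PBS; any other gene is said to have been chosen once values were known. The comparison and the lists were chosen with earlier results of these data known. Replicate numbers did not pair the samples. Alternatives were the mean of a gene's probe sets, a level filter, array weights, median centring, quantile normalization, a trended prior, only the groups compared, a replicate block, a 2-fold minimum and each array left out; covariates for 18S and actin signals were added after the data were seen. Figures were drawn with matplotlib 3.10.9.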

Additional observations from a re-analysis of the deposited data

Results flagged for a closer look

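In 20 of 320 groups of 4 arrays or more checked for the named genes, 1 array lay far from the others by Dixon's criterion; chance alone marks about 1 group in 20. Among treated wild types, replicate 4 was high for Cebpd (10.08), Ddit4 (10.72), Klf15 (8.84), Pik3r1 (8.96) and Prune2 (7.16). Replicate 2 was high for Alas2 (7.04), Col4a1 (11.42), Itgb8 (5.99), Kif3a (7.72) and Scd2 (9.15). Replicate 1 was high for Ighm (9.11) and low for Fbln2 (8.69), and replicate 3 was low for Col12a1 (7.37) and Col18a1 (7.19). Among treated mutants, replicate 2 was high for Col3a1 (12.72), F13a1 (8.75) and Lum (10.05), replicate 1 was low for Bambi (5.63) and Serpinf1 (9.14), and replicate 4 was high for Sesn1 (10.22).

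The genotype effect differed between trap and PBS, by the limma test of that difference, in 22 of 160 genes looked at, beside 0.169% of all genes. Some of the 160 were picked by that same test or after values were seen. The count of 22 therefore follows in part from the choice and is a description only. The log2 difference was positive for Kera (3.01), Col1a1 (2.93), Tnmd (2.56), Wif1 (2.41), Alas2 (2.32), Tiam1 (2.19), Col4a5 (2.16), Col11a1 (2.05), Col1a2 (1.89), Ecrg4 (1.89), Serpinf1 (1.71), Thy1 (1.65), Cpxm2 (1.51), Col11a2 (1.5), Dpt (1.36), Col22a1 (1.32), Sparc (1.31), Ret (1.26) and Col4a4 (1.24). It was negative for Ctps2 (-1.56), Ahnak (-1.04) and Ptp4a3 (-0.9).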

How the results depend on the processing

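All 295 genes called under the trap kept their direction in every alternative that gave them a value. Array weights gave 996 calls (187 higher, 809 lower), a 2-fold minimum 61 (6 and 55) and the actin covariate 34 (4 and 30); leaving out 1 array gave 101 to 378 (6 to 34 higher, 93 to 348 lower), and the other settings 230 to 381. Under PBS the count was 1643 with only the groups compared, 558 at 2-fold, 853 with the 18S covariate, 1348 with the actin covariate and 1659 to 3607 without single arrays. The difference between treatments gave 51 genes above the median level, 65 after quantile normalization, 363 with array weights, 11 with the 18S covariate and 12 to 569 without single arrays; it has no value with only the groups compared. Kidney gave 5201 above the median level, 1977 at 2-fold and 7155 to 8485 without single arrays. The causes were not tested, except that the filter tests fewer genes and the fold minimum keeps fewer.

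With the replicate number as a block (the paired fit) 251 genes were called under the trap and 54 for the difference. Same-numbered arrays correlated at 0.053, 0.178, 0.301 and -0.077, so the numbers name samples only.

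Of 99 named genes, 47 were called: 9 stayed called and 38 lost the call in some setting; 16 of the 52 others gained one. 11 genes turned sign in 28 values. With the mean of probe sets these were Ctps2 (0.019) and Ahnak (0.019); with quantile normalization Myc (0.012) and Ctps2 (0.006); with median centring Trim63 (0.007) and Myc (0.005); with the actin covariate Fbxo32 (-0.358), Lcn2 (-0.44), Slc15a2 (-0.594) and Atf4 (-0.008). Without single arrays the values spanned both signs for Trim63 (-0.185 to 0.065), Myc (-0.28 to 0.141), Ctps2 (-0.151 to 0.021), S100a8 (-0.169 to 0.585), Slc15a2 (-0.271 to 0.851), Mt1 (-0.247 to 0.708), Fbxo32 (-0.004 to 0.42) and Id1 (-0.261 to 0.024). Probes near background may limit the folds of dim genes, which was not tested.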

Other observations

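Gene families outside the lists were counted after their values were seen, and the counts are descriptions. Beside each count stand 1.51% of all genes that were lower. Integrin genes, most of which encode receptors by which cells hold matrix, had 6 of 26 members lower and none higher in treated mutants: Itgav as given, Itga1 (-0.83 ± 0.11), Itga8 (-0.71 ± 0.14), Itgb1 (-0.37 ± 0.09), Itgb8 (-1.21 ± 0.23) and the integrin-like Itgbl1 (-0.85 ± 0.15). Their ligands the laminins had 3 of 10 lower, Lama2, Lamb1 and Lamc1, by 0.56, 0.73 and 0.69. Lama2 is the alpha chain of the muscle basement membrane. Enzymes that hydroxylate collagen had 3 of 11 lower: P3h3 (-0.80 ± 0.16), Plod1 (-0.58 ± 0.10) and Plod2 (-0.89 ± 0.19).

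The called members of cytoskeletal and membrane-binding families were also lower. Annexins had 3 of 11 lower, Anxa1 (-0.84 ± 0.18), Anxa2 (-0.93 ± 0.22) and Anxa5 (-0.70 ± 0.16). Tubulins had 3 of 11 lower, Tuba1a, Tubb2a and Tubb2b, the first at -0.80 ± 0.17 and the second at -0.97 ± 0.22. The beta-thymosins, which bind actin monomers, had 2 of 3 lower, Tmsb10 (-0.99 ± 0.23) and Tmsb4x (-0.60 ± 0.13). Serpins had 3 of 38 lower at a median of 0.01.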
